A study of Mus musculus with 12 samples.

Results

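The cells that build the vessels of the brain were followed through 36 of their marker genes, of 55487 genes counted in striatal tissue of 12 mice. The 36 genes were taken by symbol from a written list, 28 for endothelial cells, which line the vessels and form the blood-brain barrier, and 8 for mural cells, the pericytes and smooth muscle cells wrapped around them. This list and the wider lists below were chosen with earlier results of these data known. Their shares set against all genes therefore describe the lists and are not independent support. Endothelial cells of the brain are sealed to each other by tight junctions, and molecules reach the tissue mainly through transporters in their membranes. Signals through VEGF, angiopoietin and Wnt receptors and transcription factors of the ETS and SOX families keep this state, and pericytes recruited by PDGF-B help to maintain it. Loss of barrier and vessel changes have been described in Huntington's disease, which mainly strikes the medium spiny neurons of the striatum.

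Each of the 4 groups held 3 mice. Controls (WT) were C57BL/6J mice. HD mice were heterozygous for the zQ175 neo-deleted knock-in allele, which places an expanded CAG repeat in the mouse Htt gene in every cell. The cGAS-KO group lacked cGAS, an enzyme that senses DNA in the cytosol and signals through STING to interferon genes, and the cGAS-KO;HD group carried both mutations and are called double mutants here. The series asks whether removing cGAS alters disease in the knock-in mice. The sources used here give no age or sex, nor the cGAS allele and how much of the gene it removes. No cells were sorted, so fewer vessel cells and less RNA per vessel cell cannot be told apart in any result below. All comparisons draw on the same 4 groups, so they share libraries and are not independent of each other. Every gene was tested in edgeR's quasi-likelihood fit over all 12 libraries, and "called" means a Benjamini-Hochberg adjusted p under 0.05 over the 21309 genes tested.

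The libraries held 59195327 to 72765623 counts. All 36 genes passed the filter on low counts, with 1141 (Sox18) to 102857 (Tjp1) counts over the 12 libraries. Cgas itself had 79 to 105 counts per WT library and 36 to 54 per cGAS-KO library, but 73 to 95 per HD library and 56 to 85 per double-mutant library. Counts over a whole gene do not check the label where the deleted stretch is not known, and for the double mutants they did not separate the groups. Library cGAS-KO replicate 3 stood apart, with 11.5% of its counts from mitochondrial genes against 5.3% to 9.03% in the others. The RNA of Xist was at 1150 to 1590 CPM in 6 libraries (1 of WT, 2 of HD, 1 of cGAS-KO and 2 of the double mutants) and at 0.251 to 2.53 CPM in the other 6, where CPM is the count over the scaled library size, times 1000000. The Y-linked gene Ddx3y was at 0 to 0.0997 CPM in the high-Xist libraries and at 81.8 to 106 CPM in the other 6. By these RNAs the high-Xist mice read as female and the others as male. Females were more frequent in both knock-in groups than in their controls, so sex is partly confounded with the knock-in effect. Genes of the choroid plexus, a secretory tissue of the ventricle wall, summed to 2060 CPM in WT replicate 1 against 93.88 and 169.2 CPM in the other WT libraries. Outside WT they summed to 321.2 to 2155 CPM in HD, 253.8 to 997.7 CPM in cGAS-KO and 136.4 to 1295 CPM in double mutants. WT replicate 1 thus stood apart within WT only. The HD library at 2155 CPM was kept in the fits below that left out WT replicate 1 and cGAS-KO replicate 3 together.

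The defining genes of each class were present. Per kilobase of exon, the mean level over the 12 libraries was highest for Tjp1, the junction scaffold ZO-1, at 16.3 CPM per kb. Next came Vtn, the pericyte product vitronectin, at 15.9, the phospholipid carrier Pltp at 15.8 and the glucose carrier Slc2a1 at 15.1. Tjp1, Slc2a1, Slco1c1, Slc16a1 and Pltp are also made by glia or neurons, so their bulk levels are not those of vessels alone. The pericyte genes Rgs5 and Pdgfrb stood at 12.7 and 3.29 CPM per kb, the tight-junction claudin Cldn5 at 4.84, and the adhesion molecule Pecam1 at 1.49. The lowest 3 were the clotting factor gene Vwf at 0.382, the transcription factor Sox17 at 0.369 and the smooth muscle myosin Myh11 at 0.324 CPM per kb.

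Most of the vessel genes had their highest group mean in WT and their lowest in the double mutants. The WT mean was the highest of the 4 group means in 28 of 36 genes, while 21.3% of all genes tested had their highest mean in WT. The double-mutant mean was the lowest in 27 of 36, against 22.2% of all genes. Both held in 23 of 36 genes, 20 endothelial and 3 mural, against 9.4% of all genes. In 5 genes all 3 double-mutant libraries lay below all 9 others, which 0.882% of all genes did, and all 5 were endothelial: Cldn5, Egfl7, Flt1, Tie1 and Sox18. The gap was narrow for some of them: the double-mutant libraries reached 17.7 CPM for Flt1 while the other 9 began at 18.8 CPM, and 1.64 against 1.70 CPM for Tie1. For Egfl7 these were 4.66 against 5.33 CPM and for Sox18 0.972 against 1.11 CPM.

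**Figure D1:**
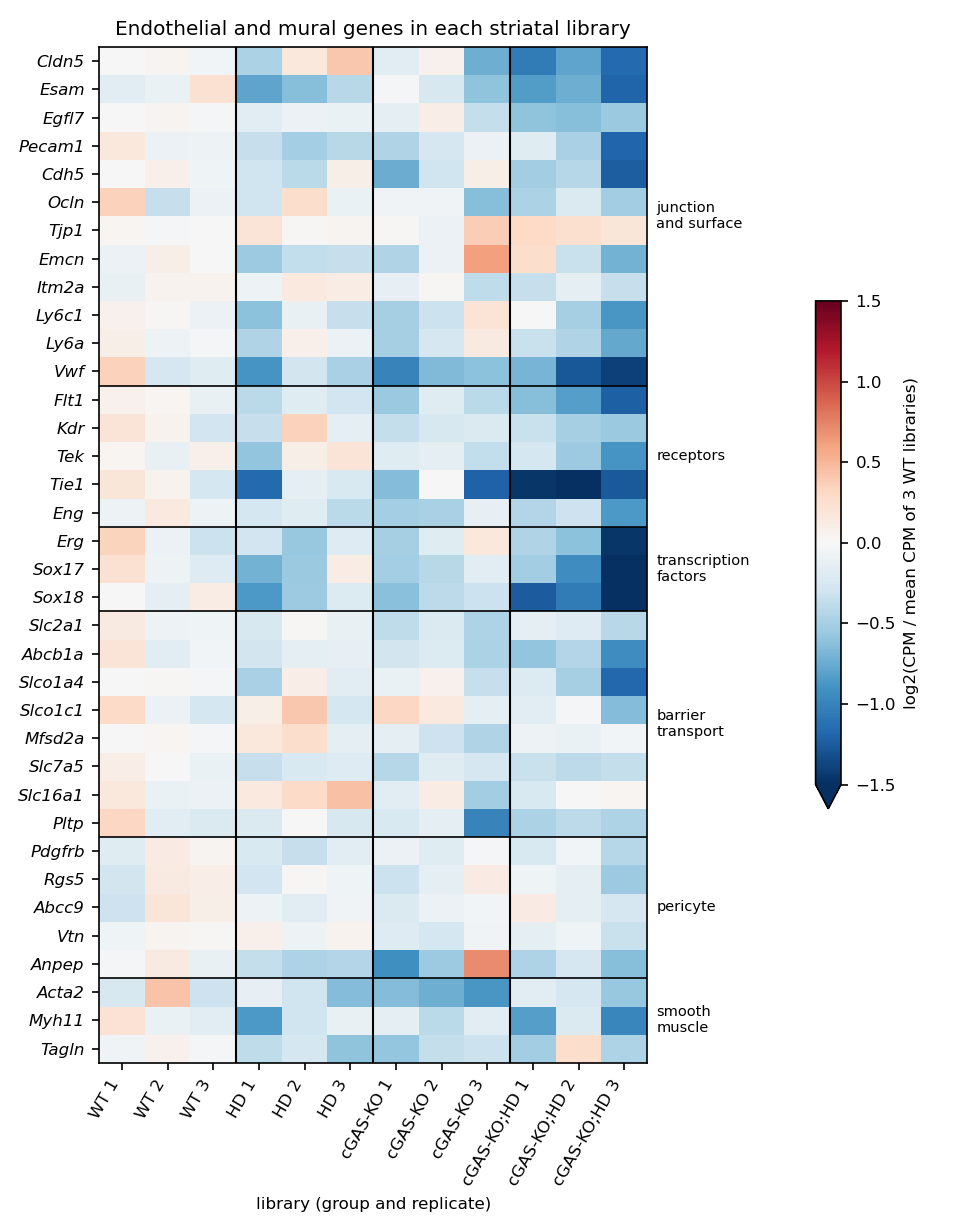
Level of each of the 36 genes (rows, grouped by role) in each of the 12 libraries (columns), as log2 of CPM over the mean CPM of the 3 WT libraries. Blue is lower and red higher than WT, and values under the end of the scale take its darkest blue. The double-mutant columns are the bluest, replicate 3 most of all, and cGAS-KO replicate 3 holds both dark blue and red rows.

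The mean log2 level of the 28 endothelial genes, taken as log2(CPM + 0.5), was 3.56 to 3.73 in WT, 3.30 to 3.56 in HD, 3.33 to 3.48 in cGAS-KO and 2.90 to 3.25 in double mutants. WT libraries lay above all others, and double-mutant libraries below all others. The mean log2 level of the 8 mural genes was 3.12 to 3.35 in WT, 3.00 to 3.03 in HD, 2.90 to 3.16 in cGAS-KO and 2.77 to 3.14 in double mutants. Here the 3 groups with a mutation overlapped, and cGAS-KO and the double mutants each reached into the WT range with 1 library. The endothelial level exceeded the mural level by 0.41 ± 0.19 for WT, 0.44 ± 0.12 for HD, 0.39 ± 0.17 for cGAS-KO and 0.15 ± 0.11 for double mutants (log2 scale, SD, n = 3 each). This difference was lower in every double-mutant library (0.05 to 0.26) than in every HD library (0.30 to 0.53), and overlapped with WT and cGAS-KO. Double-mutant replicate 3 was the lowest of the 12 libraries in 22 of 36 genes, against 5.61% of all genes, so 1 mouse set the low end of many genes. It was the lowest for 4 of 8 mural and 18 of 28 endothelial genes. At the high end, WT replicate 1 was the highest of the 12 libraries in 12 of 36 genes, 11 of them endothelial. The share of all genes highest in that library was not counted. Library cGAS-KO replicate 3 was the lowest in 7 and the highest in 5, among them the sialomucin Emcn at 6.89 CPM and the peptidase Anpep at 3.41 CPM on the high side and Pltp at 23.9 CPM on the low side.

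**Figure D2:**
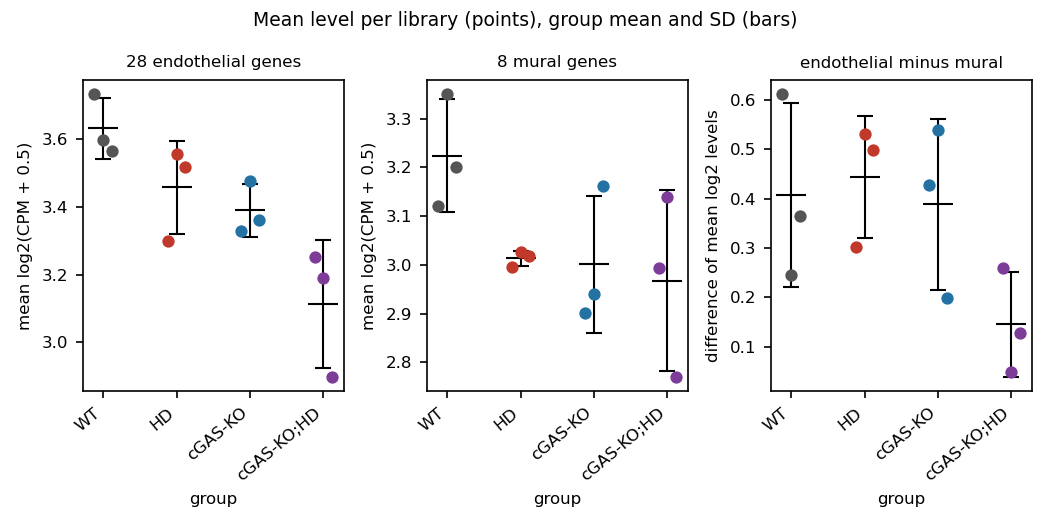
Mean log2(CPM + 0.5) of the 28 endothelial genes and of the 8 mural genes, and the difference of both, for each library (points) with group mean and SD (bars, n = 3). The endothelial panel shows WT at 3.56 to 3.73 above and double mutants at 2.90 to 3.25 below the other groups, while in the difference the double mutants at 0.05 to 0.26 lie below HD at 0.30 to 0.53 and overlap with WT and cGAS-KO.

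The upstream sequences of 3 genes are shown as examples of 2 patterns in these data. They are Flt1 and Cldn5, endothelial genes below all other libraries in the double mutants, and Rgs5, a pericyte gene whose groups overlapped throughout. Each is the 250 bases before the RefSeq start on the gene's own strand (GRCm38.p6), with the ETS core GGAA or its complement TTCC in capitals: Flt1 at chr5:147726012-147726261, minus strand, Cldn5 at chr16:18776597-18776846, plus strand, and Rgs5 at chr1:169655251-169655500, plus strand.
Flt1: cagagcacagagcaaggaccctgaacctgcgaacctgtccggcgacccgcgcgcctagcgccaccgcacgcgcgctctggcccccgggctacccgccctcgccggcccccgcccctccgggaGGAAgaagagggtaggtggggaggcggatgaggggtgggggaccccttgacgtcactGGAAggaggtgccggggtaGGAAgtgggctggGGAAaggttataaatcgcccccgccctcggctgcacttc
Cldn5: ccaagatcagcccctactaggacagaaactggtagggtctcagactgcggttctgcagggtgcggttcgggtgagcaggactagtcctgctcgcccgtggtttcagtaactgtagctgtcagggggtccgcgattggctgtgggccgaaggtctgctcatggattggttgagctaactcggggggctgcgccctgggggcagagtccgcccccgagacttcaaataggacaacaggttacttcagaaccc
Rgs5: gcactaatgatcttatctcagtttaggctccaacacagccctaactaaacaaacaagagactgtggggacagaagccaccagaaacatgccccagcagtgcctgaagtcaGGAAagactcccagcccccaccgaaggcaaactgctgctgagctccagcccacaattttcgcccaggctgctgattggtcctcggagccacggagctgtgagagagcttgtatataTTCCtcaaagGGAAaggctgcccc
Flt1 held 4 matches to GGAA, Rgs5 held 3 and Cldn5 held 0 in these windows. On either strand GGAA was in 93.4% of all 32851 such windows, so its presence is common. The longer AGGAAG, which contains GGAA, was in 29.5% of all windows and in 11 of the 25 vessel genes with a window, all 11 among the 20 endothelial ones. The letters ACAAT, part of many SOX motifs, were in 27.7% of all windows and in 5 of the 25. A gene counted where any of its windows held the letters, while the share of all is over single windows. Counts of genes and shares of windows are therefore not on the same footing. Matches are letters only and show no binding.

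With the knock-in allele, 4 of 36 genes (11.1%) fell when its effect was averaged over mice with and without cGAS, and none rose. Over all genes tested 13.2% were called, 7.63% as lower, so the share of calls among vessel genes was near the background. The lean of the whole list was wider than the calls. The log2 change was below 0 in 31 of 36 genes, against 47.9% of all genes, with a median of -0.22 against 0.01 over all genes, and 13 of 36 had an unadjusted p under 0.05, all lower, against 27.5% of all genes in either direction and 14.2% as lower. The 4 genes were Esam, an adhesion molecule of endothelial junctions, Sox18, a transcription factor of vessel identity, Flt1, the VEGF receptor 1, and Egfl7, a secreted factor of endothelial cells whose gene also holds the microRNA Mir126a.

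Esam (chr9, 37528078 to 37538319) had 5.73, 6.01 and 7.53 CPM in WT and 3.71, 4.14 and 4.80 CPM in HD. It had 6.36, 5.45 and 4.22 CPM in cGAS-KO and 3.59, 3.87 and 2.79 CPM in double mutants. Every knock-in library lay below every library of its control group. The averaged log2 change was -0.63 ± 0.13 (SE, adjusted p = 0.00835), a level 0.648 times that without the allele.

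Sox18 (chr2, 181669836 to 181671640) had 2.02, 1.83 and 2.18 CPM in WT and 1.11, 1.37 and 1.75 CPM in HD. It had 1.30, 1.53 and 1.61 CPM in cGAS-KO and 0.845, 0.972 and 0.556 CPM in double mutants. The groups again did not overlap within either pair, and the averaged log2 change was -0.71 ± 0.17 (SE, adjusted p = 0.0162). Its counts were the lowest of the 36, 39 to 153 per library. Its relative Sox17 and the ETS factor Erg, both also below 0 at -0.45 and -0.48, were not called (adjusted p 0.152 and 0.118).

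Flt1 (chr5, 147561604 to 147726011) had 28.9, 28.2 and 25.5 CPM in WT and 20.7, 24.2 and 22.6 CPM in HD. It had 18.8, 24.3 and 20.8 CPM in cGAS-KO and 17.7, 15.5 and 11.8 CPM in double mutants. Each knock-in group lay below its control group, and cGAS-KO also lay below WT. The averaged knock-in change was -0.40 ± 0.10 (log2, SE, adjusted p = 0.0175). The other receptors of this list were not called: the main VEGF receptor Kdr at -0.10, the angiopoietin receptor Tek at -0.19, its partner Tie1 at -0.65 with adjusted p = 0.066, and the TGF-beta co-receptor Eng at -0.22.

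Egfl7 (chr2, 26580014 to 26593120) had 6.79, 7.02 and 6.69 CPM in WT and 6.05, 6.43 and 6.37 CPM in HD. It had 6.19, 7.33 and 5.33 CPM in cGAS-KO and 4.49, 4.39 and 4.66 CPM in double mutants. HD lay just under WT, and the double mutants were well below the rest. The averaged change was -0.30 ± 0.09 (log2, SE, adjusted p = 0.0453), and it was no longer called without a filter on low counts (0.101) or with the high-Xist libraries as a covariate (0.103), nor in 11 of the 12 fits that left out 1 library. Egfl7 overlaps Agpat2 on the other strand, and the sources used here do not say whether counting used strand.

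**Figure D3:**
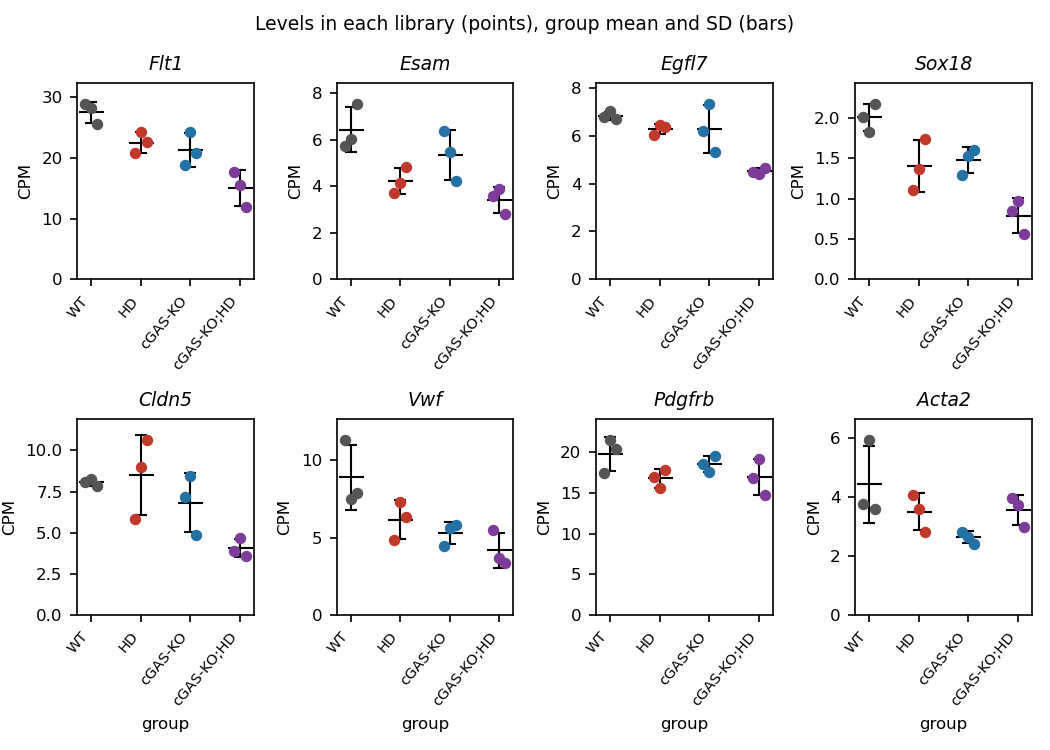
CPM of 8 genes in each library (points) with group mean and SD (bars, n = 3), each panel starting at 0. Esam, Flt1, Sox18 and Egfl7 are lower in HD than WT and lower in double mutants than cGAS-KO, Cldn5 is lowest in double mutants, and Acta2 is lowest in cGAS-KO.

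Among the other junction and surface genes the averaged knock-in change ran from -0.44 for Vwf to 0.11 for Tjp1, and none was called. Pecam1 (chr11, 106654217 to 106750628) had 12.7, 10.7 and 10.8 CPM in WT, 8.96, 8.00 and 8.51 CPM in HD, 8.31, 9.60 and 10.7 CPM in cGAS-KO, and 10.1, 8.13 and 4.99 CPM in double mutants. HD lay below WT, but the double mutants were spread across the range, and the averaged change of -0.36 was not called (adjusted p = 0.113). The transport genes were mixed. The amino acid carrier Slc7a5 was at -0.17 (adjusted p = 0.0817), the efflux pump Abcb1a at -0.25, and the organic anion carrier Slco1a4 at -0.31. Above 0 were the lipid carrier Mfsd2a at 0.16 and the lactate carrier Slc16a1 at 0.20. Slc2a1 (chr4, 119108711 to 119137983), the glucose carrier GLUT1, had 65.4, 56.4 and 56.9 CPM in WT, 50.5, 60.2 and 55.1 CPM in HD, 45.8, 51.1 and 43.4 CPM in cGAS-KO, and 53.9, 51.9 and 44.8 CPM in double mutants. Its knock-in groups overlapped their controls, with an averaged log2 change of -0.0029 ± 0.07 (SE).

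Leaving out WT replicate 1 and cGAS-KO replicate 3, the averaged knock-in effect called 7 of the 36 genes, while the genes called over the whole fit went from 2816 (13.2%) to 4595 (21.2%). The 7 were the same 4 with Cldn5, Tie1 and, as higher, Tjp1. Each pair of groups alone called none of the 36 in edgeR's quasi-likelihood test. Between HD and WT, where 4.1% of all genes were called, 3 genes had an unadjusted p under 0.05, all lower (18.8% of all genes did, 10.1% as lower), DESeq2's Wald test called Esam and Slc7a5 (and 9.57% of the genes it tested), and limma-voom called 0. With WT replicate 1 and cGAS-KO replicate 3 left out, HD against WT called 3 of the 36, Esam and Pdgfrb as lower and Slc16a1 as higher, and 16.5% of all genes. The median log2 change was -0.18, with 29 of 36 below 0 against 48% of all genes, and 12 of 36 genes had all HD libraries below all WT libraries, against 13.1% of all genes. Between double mutants and cGAS-KO, where 3.96% of all genes were called, 8 genes had an unadjusted p under 0.05, all lower (17.4% of all genes did, 9.23% as lower), and DESeq2's Wald test called Cldn5, Egfl7, Esam, Flt1 and Sox18 (and 8.12% of the genes it tested) while limma-voom called 0. The median was -0.30, with 29 of 36 below 0 against 49.5% of all genes. The groups did not overlap in 7 of 36 genes on the low side, against 10.7% of all genes, and in 2, Mfsd2a and Acta2, on the high side, against 10.8%. Without cGAS-KO replicate 3 this pair called 5 genes, Cldn5, Egfl7, Esam and Tie1 as lower and Tjp1 as higher, and 4.97% of all genes. Without double-mutant replicate 3 its median was -0.14.

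For loss of cGAS most of the vessel genes had a fitted change below 0, but no single gene was called. The averaged effect of cGAS loss had a log2 change below 0 in 34 of 36 genes, against 50.5% of all genes, with a median of -0.27 against -0.0023 over all genes. At an unadjusted p under 0.05 there were 20 of 36 genes (55.6%), all lower, while 8.63% of all genes passed that mark and 4.05% passed it as lower. None of the 21309 genes was called (0%), and the smallest adjusted p among the 36 was 0.564. DESeq2's Wald test called 1 of the 36, Flt1 (adjusted p = 0.0179), and 0.0469% of the genes it tested, and limma-voom called 0. The only genes above 0 were Tjp1 at 0.14 and Emcn at 0.15. Endothelial genes had a median of -0.30 and mural genes of -0.11. With WT replicate 1 and cGAS-KO replicate 3 both left out the median of the 36 was -0.23, and without double-mutant replicate 3 it was -0.22.

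The 4 genes with the smallest p for cGAS loss were Flt1, Cldn5, Vwf and Abcb1a. Flt1, whose levels are given above, had an averaged log2 change of -0.48 ± 0.10 (SE). Cldn5 (chr16, 18776847 to 18778262), the main claudin of the brain's endothelial tight junctions, had 8.07, 8.29 and 7.84 CPM in WT and 5.83, 9.02 and 10.7 CPM in HD. It had 7.16, 8.43 and 4.87 CPM in cGAS-KO and 3.89, 4.66 and 3.60 CPM in double mutants. Only the double mutants stood clear of the other libraries, and the averaged change was -0.66 ± 0.16 (log2, SE). Vwf (chr6, 125546774 to 125686679), which endothelial cells store for clotting, had 11.4, 7.50 and 7.88 CPM in WT and 4.83, 7.34 and 6.35 CPM in HD. It had 4.45, 5.61 and 5.82 CPM in cGAS-KO and 5.48, 3.69 and 3.38 CPM in double mutants. All 9 mutant libraries lay below the 3 WT libraries, with an averaged change for cGAS loss of -0.66 ± 0.16 (log2, SE). Abcb1a (chr5, 8660077 to 8748575), the drug efflux pump of the barrier, had 19.0, 14.8 and 16.3 CPM in WT and 13.8, 15.2 and 15.3 CPM in HD. It had 13.8, 14.5 and 12.0 CPM in cGAS-KO and 11.1, 12.4 and 8.73 CPM in double mutants. Both groups without cGAS lay below their partners, with an averaged change of -0.39 ± 0.10 (log2, SE). The adjusted p was 0.564 for each of these 4 genes.

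**Figure D4:**
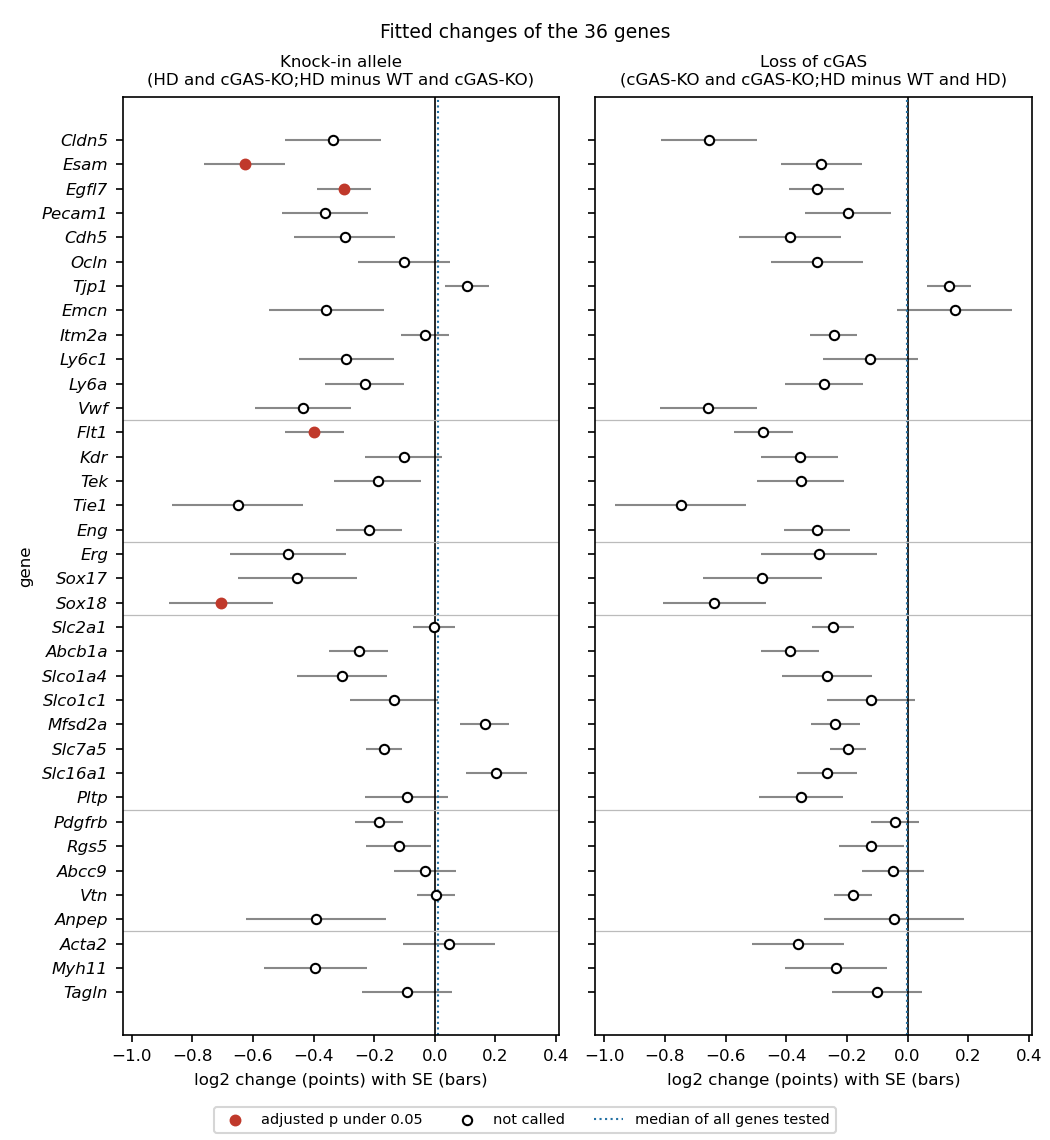
Fitted log2 change (points) with SE (bars) of the 36 genes for the knock-in allele (left) and for loss of cGAS (right), each averaged over the other genotype. Red points are called and the dotted line is the median of all genes tested. On the left 4 points are red and 31 lie below 0, and on the right 34 lie below 0 with none called.

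By role, all 5 receptors were below 0 with an unadjusted p under 0.05 for cGAS loss (Tie1 at -0.75, Kdr at -0.36, Tek at -0.35 and Eng at -0.30 beside Flt1). All 8 transport genes were below 0, from -0.39 for Abcb1a to -0.12 for the thyroid hormone carrier Slco1c1, and 6 of the 8 had an unadjusted p under 0.05. Of the transcription factors Sox18 was at -0.64, Sox17 at -0.48 and Erg at -0.29. Among junction and surface genes 10 of 12 were below 0, with the cadherin Cdh5 at -0.39, the junction protein Ocln at -0.30, the membrane protein Itm2a at -0.24, and the surface antigens Ly6a at -0.28 and Ly6c1 at -0.12. Ly6a and Ly6c1 belong to a cluster of similar genes, as Abcb1a and Slco1a4 have close relatives, so reads could have been shared between copies. None of these changes was called.

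Each cGAS comparison alone had the same lean. Between cGAS-KO and WT, 33 of 36 genes were below 0, against 49.6% of all genes, with a median of -0.24, and 12 had all cGAS-KO libraries below all WT libraries, against 4.53% of all genes. No gene was called (0% of all genes), 8 of the 36 had an unadjusted p under 0.05, all lower (4.28% of all genes did, 2.32% as lower), and DESeq2 and limma-voom also called 0. Slc2a1 had the smallest p of the 36, at -0.35 ± 0.10 (log2, SE, adjusted p = 0.919). Between double mutants and HD, 30 of 36 were below 0, against 48.9% of all genes, with a median of -0.32, and 10 had all double-mutant libraries below all HD libraries, against 8.33% of all genes. edgeR's quasi-likelihood test called 0 of the 36 and 0.00469% of all genes, 12 of the 36 had an unadjusted p under 0.05, all lower (5.78% of all genes did, 3.35% as lower), and limma-voom called 0. The smallest p was that of Cldn5, at -1.07 ± 0.23 (log2, SE, adjusted p = 0.757), and it was the only one of the 36 that DESeq2's Wald test called. Without double-mutant replicate 3 the median was -0.19.

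The knock-in effect without cGAS was compared with that in its presence through an interaction term, which is negative where the double mutants are lower than both single effects add up to. No member was called (0.00469% of all genes were), 2 had an unadjusted p under 0.05 (2.84% of all genes did), and DESeq2 and limma-voom called 0. The median was -0.04, and 21 of 36 were below 0, against 50.9% of all genes. Both genes had an adjusted p of 1: Cldn5 at -0.83 ± 0.32 and Acta2 at 0.77 ± 0.30 (log2, SE). So the data did not show that the knock-in effect on these genes differs with cGAS, and at this sample size the SE of an interaction was 0.14 for Slc2a1 and 0.43 for Tie1.

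None of the 8 mural genes was called in any of the 7 comparisons in edgeR's quasi-likelihood test over all 12 libraries. The share of all genes called ran from 0% for the averaged cGAS effect to 13.2% for the averaged knock-in effect. So 0 calls among 8 genes do not set the mural genes apart from the background. With WT replicate 1 and cGAS-KO replicate 3 left out, Pdgfrb was called as lower in HD than WT, where 16.5% of all genes were called. Pdgfrb (chr18, 61045150 to 61085061), the PDGF receptor that holds pericytes to the vessel, had 17.5, 21.6 and 20.4 CPM in WT, 17.0, 15.6 and 17.8 CPM in HD, 18.6, 17.5 and 19.5 CPM in cGAS-KO, and 16.9, 19.2 and 14.8 CPM in double mutants. Its groups overlapped in all pairs, with an averaged change of -0.19 ± 0.08 for the knock-in (adjusted p = 0.148) and -0.04 ± 0.08 for cGAS loss (log2, SE). Rgs5 (chr1, 169655501 to 169695813), a regulator of G-protein signalling that marks pericytes, had 51.4, 68.0 and 66.5 CPM in WT, 51.0, 62.8 and 59.3 CPM in HD, 49.5, 56.2 and 67.5 CPM in cGAS-KO, and 59.4, 55.8 and 42.4 CPM in double mutants. Its averaged change was -0.12 ± 0.11 for each effect. The potassium channel subunit Abcc9 was at -0.03 and -0.05, Vtn at 0.01 and -0.18, and Anpep at -0.39 and -0.05 for the knock-in and for cGAS loss.

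Of the contractile genes, Acta2 (chr19, 34241090 to 34255590), smooth muscle actin, had 3.76, 5.94 and 3.57 CPM in WT and 4.06, 3.60 and 2.82 CPM in HD. It had 2.83, 2.66 and 2.41 CPM in cGAS-KO and 3.96, 3.73 and 2.98 CPM in double mutants. The cGAS-KO libraries were below all WT libraries and also below all double-mutant libraries, so its order differs from that of the endothelial genes. Myh11 was at -0.39 and -0.24 and the actin-binding gene Tagln at -0.09 and -0.10 for the knock-in and for cGAS loss. Tagln had 2219 counts in all and overlaps Pcsk7, with 19982 counts on the other strand, and Pltp with 32700 counts likewise overlaps Ctsa with 85248.

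A wider list of 182 other vascular genes, of which 176 could be tested, gave more calls. Selp, Sele, Aplnr, Mylk2, Myocd and Actg2 had too few counts. The averaged knock-in effect called 24 of the 176 as lower (13.6%) and 10 as higher (5.68%), against 7.63% and 5.59% of all genes. Of the other endothelial genes the guidance receptor Robo4 (-0.67), the phosphatase Ptprb (-0.34), Ushbp1 (-0.71) and Cd93 (-0.54) fell. Acvrl1, the BMP receptor ALK1, had 18.7, 18.8 and 23.2 CPM in WT and 8.95, 9.46 and 5.23 CPM in HD. It had 17.1, 14.4 and 18.0 CPM in cGAS-KO and 6.08, 7.56 and 7.07 CPM in double mutants. Knock-in and control libraries were far apart, with a log2 change of -1.31 ± 0.14 (SE, adjusted p = 6.63e-05).

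Notch genes split, with the ligand Jag1 at -0.49, the receptor Notch4 at -0.49 and the feedback regulator Nrarp at -0.50 among those that fell, and Notch1 at 0.32 and Hey2 at 0.31 among those that rose. The arterial genes Hey1 (-0.53), Gkn3 (-1.22) and Efnb2 (-0.60) fell, as did Ackr1 (-0.69) and Plvap (-0.33) of the venous list. The Wnt receptor partner Adgra2 (-0.46) and the ligand Wnt7a (-0.33) fell, and the Wnt feedback gene Nkd1 rose (0.38). The growth factor Pdgfb (-0.33), the chemokine Cxcl12 (-0.52) and the channel Trpc6 (-0.88) fell, and the angiopoietin Angpt1 rose (0.58). Of the contractile and actin genes Tpm2 (-0.87), Tpm1 (-0.44), Mrtfa (-0.43) and Srf (-0.40) fell and Cald1 (0.43) rose. The taurine carrier Slc6a6 fell (-0.51). In the basement membrane list Nid1 (0.69), Lama2 (0.52) and Itgb1 (0.26) rose and Lamb1 (-0.33) fell, and Smad5 (0.28) of the BMP pathway rose. Many of these genes are also made by neurons or glia. Loss of cGAS called none of the 176 in edgeR's quasi-likelihood test, with 36 at an unadjusted p under 0.05 (20.5%, 33 of them lower), against 8.63% of all genes. In the 34 other endothelial genes 29 were below 0, against 50.5% of all genes, with a median of -0.25, and Robo4 had the smallest p at -0.85 ± 0.17 (log2, SE, adjusted p = 0.564).

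Markers of other cells were counted beside these results. With the knock-in, all 12 striatal neuron genes fell, with a median of -1.29, and their summed level was 3155 to 4505 CPM in WT, 1059 to 2118 CPM in HD, 3979 to 4907 CPM in cGAS-KO and 1821 to 1869 CPM in double mutants. Of the other lists the knock-in called 2 of 10 cortical neuron genes as lower (Nrgn and Lamp5), 1 of 10 astrocyte genes each way (Slc1a2 lower, Aqp4 higher), 3 of 8 oligodendrocyte genes as lower (Cldn11 and Mobp among them) and 1 of 10 microglia genes as higher (Tmem119). It called 1 of 11 fibroblast genes as higher (Col3a1) and 2 of the 5 erythrocyte genes tested as lower (Hba-a2 and Hbb-bt). It called 0 of 12 choroid plexus and 0 of 8 perivascular macrophage genes. Over all genes tested 7.63% were called as lower and 5.59% as higher, so single calls in these short lists were near the background. Fibroblast genes, the other main cell of vessel walls, were above 0 in 11 of 11, against 52.1% of all genes. Their summed levels were 99.0 to 130.7 CPM in WT, 117.2 to 128.0 CPM in HD, 99.1 to 106.6 CPM in cGAS-KO and 117.1 to 141.4 CPM in double mutants.

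For cGAS loss none of these lists held a called gene in edgeR's quasi-likelihood test. The median log2 change was -0.40 for choroid plexus (12 of 12 below 0), -0.10 for fibroblasts (10 of 11), -0.14 for oligodendrocytes (8 of 8), -0.11 for astrocytes (6 of 10), -0.07 for microglia (7 of 10), -0.04 for perivascular macrophages (5 of 8) and -0.04 for erythrocytes (4 of 5). It was 0.24 for striatal neurons and 0.52 for cortical neurons. Over all genes tested 50.5% were below 0. The choroid plexus changes had wide errors, with an SE from 0.32 for Otx2 to 1.05 for Ttr. Choroid plexus genes summed to 93.88 to 2060 CPM in WT, 321.2 to 2155 CPM in HD, 253.8 to 997.7 CPM in cGAS-KO and 136.4 to 1295 CPM in double mutants. The part of these other cells in the vessel gene results was not tested.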

How the data were processed

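Poly(A) RNA of striatal tissue was made into directional libraries, per the labels' protocols. Counts per Ensembl gene, as whole numbers, are in the deposited file of each of 12 libraries. How the authors aligned and counted the reads (tool, build, annotation, strand) is not stated in the labels or files used here. Groups and replicate numbers came from sample titles, and the labels name 3 mice per group. Symbols, lengths and coordinates came from GENCODE M21 (GRCm38), which named 99.4% of 55487 genes, and upstream sequences from RefSeq (GRCm38.p6), which matched 25 of the 36 genes.

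Genes passing filterByExpr (minimum count 10, minimum total 15; 21309 genes) were scaled by TMM and fitted with edgeR 4.0.16's robust quasi-likelihood model (R 4.3.3), with 1 mean per group, 8 residual degrees of freedom, no covariate, and Benjamini-Hochberg adjustment with a threshold of 0.05. CPM are counts divided by the TMM-scaled library size, times 1000000. Alternatives were DESeq2 1.42.0 (size factors, Wald test), limma-voom 3.58.1, other filters, the compared groups alone, a replicate block, leaving out libraries, and, chosen after seeing the data, the high-Xist libraries as a covariate. The fit was tested on simulated data.

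The genes and lists were chosen with earlier results of these data known. Full values are given by rule for 7 defining genes, for genes called in any comparison, for the 4 smallest p in each averaged effect and the smallest in each other comparison. For the wider lists up to 3 called genes a list were named by p, and Notch4, Hey2, Lamb1, Srf, Ushbp1, Cd93, Irf7, Irf9 and the genes of the cell type lists, outside that rule, were named after their values were seen. Values of some single genes that count towards the lists are not reported here.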

Additional observations from a re-analysis of the deposited data

Results flagged for a closer look

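Acta2, smooth muscle actin, was picked out because its knock-in difference pointed opposite ways with and without cGAS. All 3 HD libraries (2.82 to 4.06 CPM) lay below the WT mean of 4.42 CPM, and all 3 double-mutant libraries (2.98 to 3.96 CPM) lay above the cGAS-KO mean of 2.63 CPM. The difference between both effects was 0.77 ± 0.30 on the log2 scale (SE, unadjusted p = 0.0246), with an adjusted p of 1 in edgeR's quasi-likelihood test over all genes. The WT mean rests on 1 library at 5.94 CPM, the others being at 3.76 and 3.57 CPM.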

How the results depend on the processing

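The numbers of the 36 genes called moved as follows. DESeq2's Wald test called 2 for HD against WT (9.57% of all genes it tested), 5 for double mutants against cGAS-KO (8.12%), 1 for double mutants against HD (0.0329%), 7 for the averaged knock-in effect (18.1%) and 1 for the averaged cGAS effect (0.0469%). Without WT replicate 1 and cGAS-KO replicate 3 these were 3 for HD against WT (16.5% of all genes), 5 for double mutants against cGAS-KO (8.31%) and 7 for the averaged knock-in effect (21.2%). Double mutants against cGAS-KO had 1 call without a low-count filter (Flt1, 2.15% of all genes) and 1 with a filter of 1 CPM in 3 libraries (Egfl7, 5.71%). Leaving out 1 library at a time gave 3 to 6 calls for the averaged knock-in effect, where 8.16% to 16.5% of all genes were called. For double mutants against cGAS-KO it gave 0 to 5 calls, with 1.46% to 4.97% of all genes called. The median log2 change ranged from -0.35 to -0.14 for double mutants against cGAS-KO, from -0.40 to -0.19 for double mutants against HD, and from -0.15 to 0.0665 for the interaction. The cause was not tested.

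Esam, Flt1 and Sox18 were called for the averaged knock-in effect in the main fit and every alternative run for it (8 settings and 12 fits that each left out 1 library), and Egfl7 was not called without a filter, with the block, with the Xist covariate or in 11 of the 12 fits. Values near 0 changed sign. The averaged knock-in change of Acta2 was -0.0435 without WT replicate 1 and cGAS-KO replicate 3 and ran from -0.0251 to 0.1823 over the fits that left out 1 library. That of Slc2a1 was 0.0046 with the Xist covariate and ran from -0.0462 to 0.0314. The cGAS effect on Pdgfrb ran from -0.0905 to 0.0020.

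Replicate numbers gave no sign of pairing the mice, though correlations over 3 libraries per group cannot exclude pairing. Over 18 pairs of same-numbered libraries the correlation of deviations from group means was -0.231 to 0.203, 2 pairs were over 0.1, and 2 of 12 libraries correlated best with their own number. With the replicate block 3 of the 36 genes were called for the averaged knock-in effect (2313 genes in all) and 0 in the other 6 comparisons. HD against WT called 507 genes with the block, 1801 with DESeq2's Wald test, 3589 without WT replicate 1 and cGAS-KO replicate 3, and 873 in the main fit. Low counts limit Sox18, at 39 counts in its lowest library.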

Other observations

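Interferon response genes, which endothelial cells and other brain cells can make, were counted from a list of 20. The averaged knock-in effect called 8 of the 20 as higher (against 5.59% of all genes) and 0 as lower (against 7.63%) in edgeR's quasi-likelihood test. The log2 change was above 0 in 18 of 20, against 52.1% of all genes, with a median of 0.57. Ifit2, a restraint on viral translation, had 16.2, 16.9 and 13.9 CPM in WT, 20.8, 24.5 and 25.8 CPM in HD, 13.6, 16.9 and 12.7 CPM in cGAS-KO, and 20.8, 22.3 and 21.3 CPM in double mutants. All knock-in libraries lay above all control libraries, with or without cGAS, and the averaged change was 0.59 ± 0.09 (log2, SE, adjusted p = 0.000769). The interferon-induced gene Ifi27 rose by 0.58, the transcription factors Irf7 and Irf9 by 1.05 and 0.36, the RNA sensor Ddx58 by 0.64, and Ifit3 and Xaf1 by 0.45 and 0.34. Loss of cGAS called 0 of the 20 and 0% of all genes, so 0 calls do not set this list apart from the background. None of the 20 had an unadjusted p under 0.05, against 8.63% of all genes. The median was -0.08 with 15 of 20 below 0, against 50.5% of all genes. DESeq2 and limma-voom were not summarised for this list. The vessel genes thus leaned lower with the knock-in in the same libraries in which this list leaned higher, and no relation between both was tested.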
